A study of Drosophila melanogaster with 2 samples.

Results

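The regions described here are Eip74EF summits at promoters that belong to a single gene. They were chosen by position alone: a summit of the authors' final peak list was kept when it lay within 500 bp of the transcription start site (TSS) of a protein-coding gene and when every protein-coding TSS within that distance belonged to that same gene. This held for 1585 of 5004 summits, or 31.7% (30.4 to 33.0%, exact Clopper-Pearson 95% interval, as are all intervals below; they cover counting error over summits or genes only). Another 478 summits (9.55%) lay at promoters shared by several genes and 2941 (58.8%) lay farther than 500 bp from any protein-coding TSS. Of the 1585 members, 113 (7.13%) also had the TSS of a non-coding gene within 500 bp, which the choice ignored.

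The data are chromatin immunoprecipitation and sequencing (ChIP-seq) from whole Drosophila melanogaster embryos, collected at 8 to 16 hours, with both sexes pooled. All embryos came from 1 transgenic strain, Eip74EF-GFP, that stably carries Eip74EF tagged with eGFP at its C-terminus, and the chromatin was pulled down through the GFP tag. The labels do not say which promoter drives the fusion protein or whether untagged Eip74EF is also present, so a summit records the tagged protein. The samples were 1 group of 2 biological replicates, numbered 1 and 3, with no untagged or untreated group. Whole embryos mix many tissues, and no value below says in which cells a promoter was bound.

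Eip74EF is an early gene that ecdysone, the steroid hormone of flies, switches on, and its protein belongs to the ETS family of transcription factors. ETS proteins share a winged helix-turn-helix domain that reads a GGAA core on either strand, with the neighbouring bases setting how well each member of the family binds. At a promoter used by 1 protein-coding gene only, a bound site was assigned to that gene by position, and whether it acts on the gene was not tested. Upstream and downstream are given here relative to the nearest TSS of the gene, which may have others.

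Sequences of 2 sets of members are printed before the counts, one chosen for a string and the other for signal, so a contrast between them follows from the choice. The first set holds the strongest members with the hexamer CGGAAG, an ETS core with its preferred flanking bases, within 50 bp of the summit and with no annotated exon in the window. Each line gives 101 bases centred on the summit, read 5′ to 3′ in the direction of the gene, from assembly dm6; capitals mark CGGAAG or the longer CCGGAAGT on either strand. Best1, a bestrophin chloride channel gene, is shown from chr3R:10170624-10170724 (minus strand), and its summit lay 187 bp upstream of the TSS. alpha-Est10, an esterase gene, is shown from chr3R:7491680-7491780 (minus strand), NTPase from chr2L:2884868-2884968 (minus strand), Osi6, of the Osiris family, from chr3R:6234356-6234456 (plus strand) and Sar1, a small GTPase of vesicle export from the endoplasmic reticulum, from chr3R:22357294-22357394 (plus strand).
Best1: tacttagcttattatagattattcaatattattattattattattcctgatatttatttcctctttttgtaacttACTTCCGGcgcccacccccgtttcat
alpha-Est10: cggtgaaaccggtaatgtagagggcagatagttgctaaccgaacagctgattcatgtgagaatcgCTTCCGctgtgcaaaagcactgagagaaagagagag
NTPase: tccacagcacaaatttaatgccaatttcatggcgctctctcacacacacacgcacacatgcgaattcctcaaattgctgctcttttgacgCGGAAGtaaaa
Osi6: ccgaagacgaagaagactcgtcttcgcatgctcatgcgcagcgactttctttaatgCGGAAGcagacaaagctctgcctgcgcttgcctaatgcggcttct
Sar1: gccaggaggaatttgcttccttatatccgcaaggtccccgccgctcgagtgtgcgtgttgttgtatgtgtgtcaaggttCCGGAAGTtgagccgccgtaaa

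The second set holds the strongest members by signal under the same limits, whatever their sequence; here capitals mark TATAAA or TAATTA on either strand, strings made of A and T alone. Gapdh2, a glycolytic enzyme gene, is shown from chrX:15867929-15868029 (plus strand), CG18549 from chr3R:12449118-12449218 (plus strand), CG14100 from chr3L:19590569-19590669 (minus strand) and CG31145 from chr3R:23669783-23669883 (minus strand). None of the 4 holds CGGAAG, and their GC content was 22.8%, 23.8%, 30.7% and 33.7% in that order, against 54.5% for Sar1, 53.5% for Osi6, 48.5% for alpha-Est10 and 44.6% for NTPase; Best1, at 29.7%, was AT-rich and held the full CCGGAAGT.
Gapdh2: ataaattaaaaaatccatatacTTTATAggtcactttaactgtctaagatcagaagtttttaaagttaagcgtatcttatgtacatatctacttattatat
CG18549: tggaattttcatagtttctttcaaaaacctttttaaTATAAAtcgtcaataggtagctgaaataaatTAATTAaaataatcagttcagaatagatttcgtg
CG14100: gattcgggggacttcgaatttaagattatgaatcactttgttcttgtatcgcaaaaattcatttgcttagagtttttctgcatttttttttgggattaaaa
CG31145: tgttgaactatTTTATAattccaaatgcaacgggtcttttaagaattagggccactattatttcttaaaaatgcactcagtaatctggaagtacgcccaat

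The strongest single-gene promoter was that of Ugalt, the UDP-galactose transporter of the Golgi, with a signal of 3224 in the list made from both replicates, 1247 in replicate 1 and 1988 in replicate 3. The signal is the authors' own value for each peak; it ranks peaks within a list, and its scale may differ between lists. Gapdh2 followed at 3191 (1116 and 2070), CG18549 at 2614 (910 and 1710) and px, plexus, a wing vein gene, at 2613 (947 and 1679). PNPase (polynucleotide phosphorylase), CG14100, SLC5A11 (a solute carrier), Fkbp14 (a peptidyl-prolyl isomerase), cu (curled, of the Nocturnin family) and CG31145 made up the rest of the strongest 10, with signals from 2463 down to 2268. All 10 were found in both replicates, and 9 of the 10 lay upstream of the TSS, by 31 bp at Ugalt to 272 bp at cu, with PNPase at 82 bp downstream as the exception. CGGAAG was within 50 bp of none of these 10 summits, whereas TATAAA was within 50 bp of 5 of them. Over all 1585 members the signal ran from 184.6 to 3224, with a median of 287.9 and quartiles of 226.3 and 442.2. The median was 299.0 at shared promoters and 277.4 away from promoters. Members were 31.7% of all summits and made up 41 of the 100 strongest and 35.5% (32.5 to 38.6%) of the 1000 strongest, against 28.7% (25.9 to 31.6%) of the weakest 20% of the list.

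Most members were found in both replicates. The final list was itself derived from both replicates, so this sharing is partly built in and is a description. A summit within 100 bp was listed in both for 1430 of the 1585 members (90.2%, 88.7 to 91.6%), in replicate 1 alone for 70, in replicate 3 alone for 82 and in neither for 3. Each replicate list holds 30000 peaks, far more than the final list, and a stricter count asked for a match among the 5004 strongest peaks of both: this held for 1086 members (68.5%). The stricter share followed the signal, at 97.2% in the strongest 20% of members, 89.0%, 81.4% and 55.8% in the next groups of that size and 19.2% in the weakest 20%. Because 5004 is also the length of the final list, its weaker members lie near that cutoff, so part of this fall is built in. EcR, the ecdysone receptor gene and one of the weak members, had 200.2 in the joint list, 72.0 in replicate 1 and 133.9 in replicate 3. Across the members found in both, the signals of the replicates rose together (Spearman 0.741, Pearson 0.821 on log2 values, a description over summits from the same embryos and not a test), and the median ratio of replicate 3 to replicate 1 was 1.73.

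**Figure D1:**
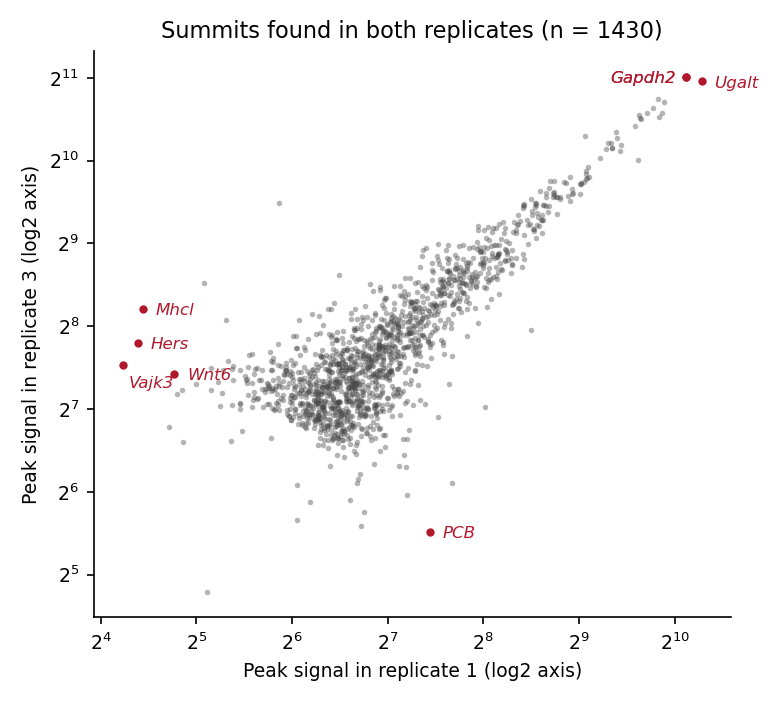
Peak signal of each member summit found in both replicates (n = 1430 points), replicate 1 on the horizontal and replicate 3 on the vertical axis, both on log2 axes. Ugalt and Gapdh2 are the 2 highest points in replicate 3, and the named points off the diagonal are the 5 summits whose ranks differ most between replicates.

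The members whose ranks differed most between replicates were Vajk3, a cuticle protein gene, Hers, Mhcl, Wnt6, a Wnt ligand, and PCB, pyruvate carboxylase. Vajk3 had a signal of 18.8 in replicate 1 and 184.5 in replicate 3, Wnt6 27.3 and 171.9, and Mhcl 21.8 and 296.2. PCB was high in replicate 1 (173.6) and low in replicate 3 (45.7). For Mhcl, Hers and PCB the weaker match lay 83, 72 and 98 bp from the summit, which is far enough to be a neighbouring peak. Vajk3 was matched within 15 bp in both, so its difference was one of height.

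Summits covered single-gene promoters unevenly. They numbered 119 per Mb over the 13.3 Mb of sequence that lies within 500 bp of the TSSs of 1 gene alone, against 241 per Mb at shared promoters and 24.8 per Mb elsewhere. The density was alike on the large arms, from 106 per Mb on X to 128 per Mb on 2R, and was 55.8 per Mb on the small chromosome 4, where it rests on 6 summits. Of 13470 protein-coding genes with such sequence, 1313 held a member summit, which is 9.75%. Most of these genes (1096) held 1 summit, 173 held 2, 35 held 3, 7 held 4 and 2 held 5.

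Genes with several separate promoters were bound more often, also per base. Among genes with 1 promoter, 678 of 11395 were bound (5.95%, 5.52 to 6.40%), while 353 of 1432 (24.7%) with 2 promoters, 148 of 395 (37.5%) with 3 and 134 of 248 (54.0%, 47.6 to 60.4%) with 4 or more were. A gene with more promoters offers more sequence, but the density rose as well, from 82 to 178, 191 and 225 summits per Mb. In genes with several promoters, 319 of 854 summits were at the 5′-most one and 535 at a downstream alternative one. That is 62.6% (59.3 to 65.9%) at downstream promoters, which hold 66.2% of the sequence, and the median signals were 285.3 and 298.8. Alternative promoters were thus bound at 182 per Mb and first promoters at 212 per Mb.

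Rtnl1, the reticulon that shapes the endoplasmic reticulum, and CG6231 held 5 summits each, the most of any gene. The Rtnl1 signals were 1104, 625.3, 421.3, 201.5 and 186.1, with the strongest of them 294 bp upstream of a TSS inside the gene. The summits of 1104 and 201.5 lay in overlapping peaks. The one of 421.3 had only 62.1 in replicate 3, at 87 bp, and the one of 186.1 had no match in replicate 1. The CG6231 signals were all low, between 191.1 and 292.6, and the strongest had no match in replicate 3. Ptpmeg2, a protein tyrosine phosphatase gene, had 3 strong summits at separate places 195 to 226 bp upstream of a TSS (1030, 956.9 and 792.2) and a weak one in a coding exon, at 245.8. RapGAP1, a GTPase activator, ranged from 270.6 to 1388, and dnc, the cAMP phosphodiesterase dunce, from 246.3 to 668.7. The weakest RapGAP1 summit shared the extent of its peak with the strongest one and had no match in replicate 1. The weakest dnc summit had no match in replicate 3. Over all 217 genes with 2 or more member summits, 98 had them all at the same promoter and 119 at different promoters, and neighbouring summits of a gene were a median of 898 bp apart.

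Within the promoter the summits sat mostly upstream of the start. The median position was 116 bp upstream of the nearest TSS, with quartiles at 247 bp upstream and 44 bp downstream (median −52 bp with a limit of 250 bp and −160 bp with the stronger 50% of peaks), and 1067 summits (67.3%, 64.9 to 69.6%) were upstream, although 45.2% of single-gene promoter sequence is. Density peaked at 251 per Mb between 101 and 200 bp upstream, was 206 per Mb in the 100 bp beyond that, dipped to 164 per Mb in the last 100 bp before the TSS and was 179 per Mb in the first 100 bp after it. It then fell to 23.1 per Mb at 400 to 499 bp downstream. Seen against the annotation, 529 summits (33.4%) lay outside genes, 561 (35.4%) in introns, 467 (29.5%) in untranslated exon sequence and 28 (1.77%, 1.18 to 2.54%) in coding exons. These classes make up 23.8%, 26.1%, 24.1% and 26.0% of single-gene promoter sequence, so coding exon was the one class with a lower share of summits than of sequence. Of the 561 intron summits, 447 lay upstream of their nearest TSS, so inside a longer transcript or another gene.

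Position moved with strength. In the strongest 20% of members, 86.4% (82.2 to 90.0%) were upstream, at a median of 195 bp before the TSS; the share fell through 69.4%, 62.5% and 60.6% to 57.7% (52.1 to 63.2%) in the weakest 20%, whose median lay 40 bp before the TSS. Members within 100 bp of the TSS made up 14.2% of the strongest and 40.7% of the weakest group. Hex-A, a hexokinase gene, at 1804 and 200 bp upstream, and Ldh, lactate dehydrogenase, at 1318 and 185 bp upstream, show the first kind. EcR, at 200.2 and 35 bp downstream, and Egfr, the epidermal growth factor receptor gene, at 205.5 and 30 bp downstream, show the second. With the strongest peaks of 1 replicate alone, the upstream share was 83.8% (replicate 1) or 86.5% (replicate 3) in the strongest 20% and 54.7% or 59.2% in the weakest.

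**Figure D2:**
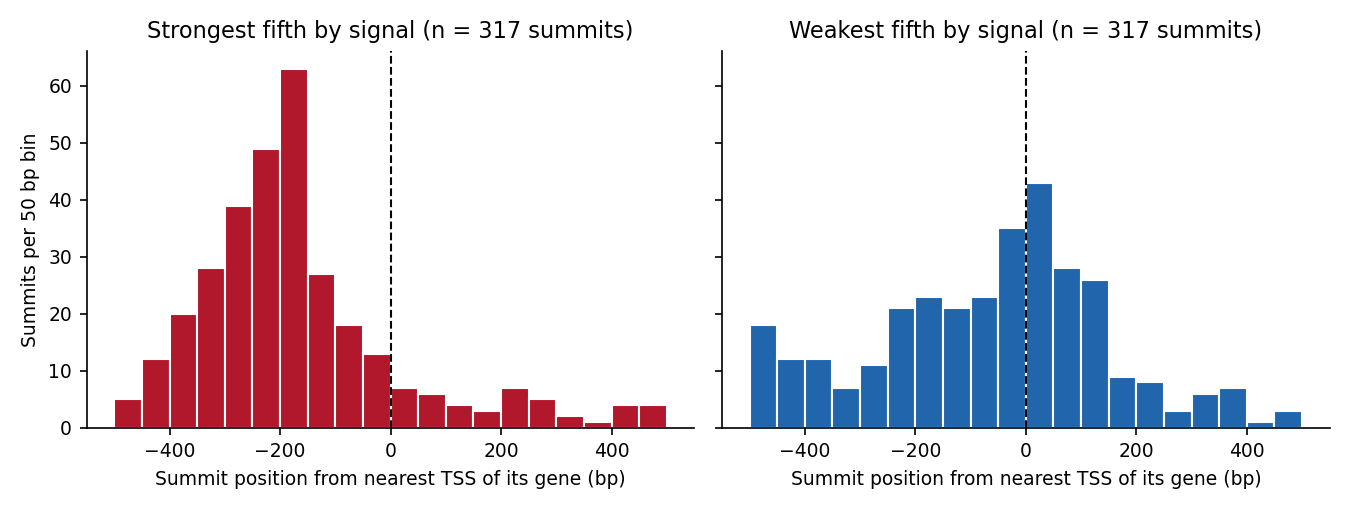
Number of member summits per 50 bp bin (vertical) by distance from the nearest TSS of their gene in bp (horizontal; the dashed line is the TSS and negative is upstream), for the strongest and the weakest 20% of members by signal. The strongest 20% (86.4% upstream) gather around 200 bp before the TSS, and the weakest 20% (57.7% upstream) around the TSS itself.

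Few summits lay near the limit of 500 bp. Just inside it, at 491 to 500 bp, lay 6 members with a median signal of 199, among them CG15249 (498 bp, 207), CG45049 (496 bp, 386.4) and a summit of Rtnl1 (494 bp, 201.5). Just outside, at 501 to 510 bp, lay 11 summits with a median of 452, among them CG10479 (501 bp, 985.5), pyd (501 bp, 194.2) and Kr-h1 (502 bp, 624.1).

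Of the 13 strings sought, the ETS hexamer CGGAAG differed from the flanks with the smallest p. It was sought on both strands within 50 bp of each summit and in windows of equal width centred 400 bp to either side. It was present at 119 of 1585 members (7.51%, 6.26 to 8.92%) while 2.11% of flanks held it, a ratio of 3.55 between summits and flanks (two-sided exact McNemar test against each flank separately, with the larger p kept, adjusted p = 1.29e-11 over 13 strings). Such p-values measure counting over summits and not the spread between embryos. The ratio was 1.95 with flanks 800 bp away (exact McNemar, adjusted p = 0.00172) and 2.32 when CGGAAG was sought within 100 bp (adjusted p = 5.65e-09). The consensus CCGGAAGT, which contains CGGAAG, was found at 8 members (0.505%) against 0.126% of flanks, too few for the test to pass (exact McNemar, adjusted p = 0.421), and CGGAAA, another ETS core, at 9.78% against 6.81% (exact McNemar, adjusted p = 0.0886). As a reference, CGGAAG was in 3.06% of 95853 windows of the same length tiled over the promoters of 10949 unbound genes, and at 7.65% of summits away from promoters. The other 1466 members had no CGGAAG near the summit, and no match says only that these letters are not in this window.

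TATAAA was the other panel string to pass. It was at 284 members (17.9%) and in 12.4% of flanks, a ratio of 1.45 (exact McNemar, adjusted p = 0.0012). In the weakest 20% of members by signal it was at 11.7%, against 13.4% of their flanks. TAATTA, the core read by many homeodomain proteins (8.64% against 6.37%, adjusted p = 0.176 by the exact McNemar test), GTCACACT, the core of the M1BP promoter element (1.45% against 0.442%, adjusted p = 0.0869), and TATCGATA, the DREF element (1.20% against 0.662%, adjusted p = 0.545), did not pass. The other panel strings, CAGCTG and CACGTG of E-boxes, GAGAGAG of the GAGA factor, CAGGTAG of Zelda, AGATAAG of GATA factors and TGACTCA of AP-1, had adjusted p from 0.421 to 0.847.

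A search of all 2080 hexamers, each with its reverse complement, also put CGGAAG first (exact McNemar, adjusted p = 2.07e-09). By the exact McNemar test with adjustment over the 2080, 24 hexamers were higher at members than in flanks (1.15%) and 13 were lower (0.625%). Of the 24, 19 were made of A and T alone, led by AAATAT at 28.0% against 17.8%. TATAAA was 1 of these 19, with an adjusted p (exact McNemar) of 0.0144, against 4.65e-08 for AAATAT. Another 3 of the 24 had 3 or more G or C bases: CGGAAG itself, then CCGGAA (4.98% against 2.40%, exact test, adjusted p = 0.0135), then GCGGAA (8.20% against 4.79%, adjusted p = 0.0215). All 3 hold GGAA within a shared CGGAA, so a single site can count for more than 1 of them. The GC content was 38.3% at members, 38.4% in the upstream and 45.3% in the downstream flanks, and the part of this difference in the A and T strings was not tested. The flanks in the tests lay to the left and right along the genome, so each set mixed upstream and downstream sides. For CGGAAG, the 60 hexamers of the same base composition give a direct value: their ratios had a median of 0.791 without CGGAAG, the next highest was 1.71, and CGGAAG came first at 3.55.

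CGGAAG was more frequent near the summit than farther out, at 1.45% to 2.27% of members per 25 bp bin within 50 bp, 1.45% from 50 to 75 bp on the plus side of the genome and 0.379% to 1.07% in the other bins out to 250 bp. Of the 116 members with 1 copy, 58 read CGGAAG along the gene and 58 against it, so the string had no preferred direction relative to transcription. GC content dipped at the summit in the strongest 20%, to 32.0% over the 101 bases, and rose through 36.3%, 39.8% and 41.5% to 42.0% in the weakest.

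**Figure D3:**
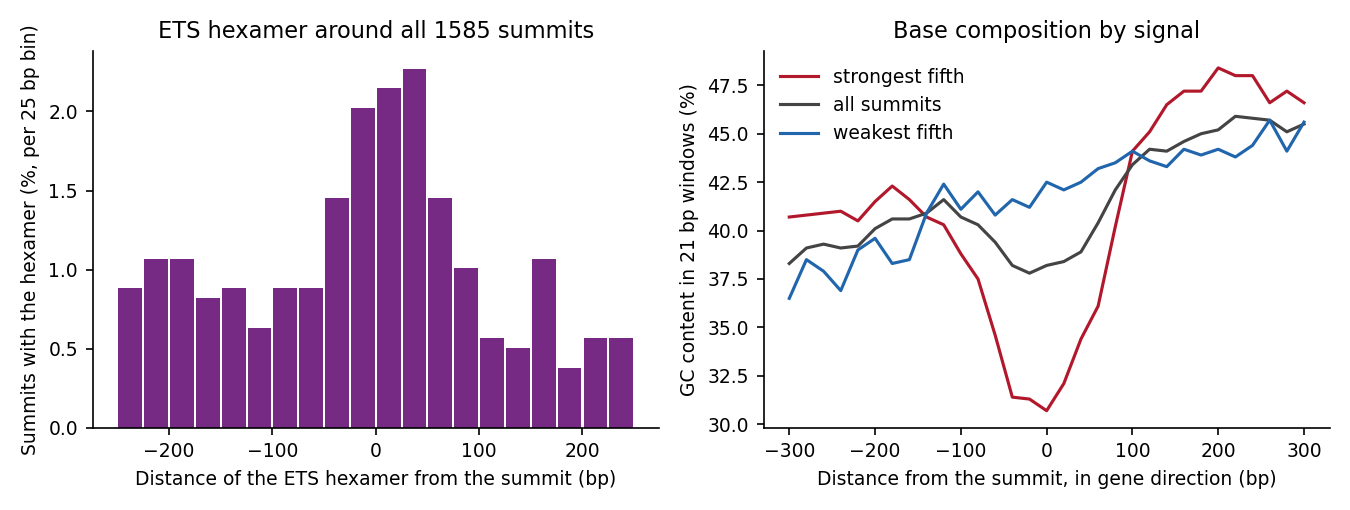
Left, the share of the 1585 members with the ETS hexamer CGGAAG (%, per 25 bp bin) by its distance from the summit in bp along the plus strand; right, mean GC content (%) in 21 bp windows by distance from the summit in gene direction, for all members and for the strongest and weakest 20% by signal. The hexamer peaks within 50 bp of the summit, and the GC dip is deep in the strongest 20% (32.0% over the 101 bases at the summit) and absent in the weakest (42.0%).

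Members with CGGAAG lay less often upstream, and more often within 100 bp of the start, than the others. Their median position was 4 bp downstream of the TSS, with quartiles of −161 and 100 bp. The 1466 members without it had a median of −126.5 bp (upstream), with quartiles of −252 and 35 bp. Upstream were 48.7% (39.5 to 58.1%) against 68.8% (66.4 to 71.2%). Within 100 bp of the TSS were 42.0% (33.0 to 51.4%) against 29.7% (27.3 to 32.1%). The 8 members with the full CCGGAAGT had a median of −139 bp, and 7 of them were upstream. The signal of members with CGGAAG was like that of the others, with a median of 300.7 against 287.2, and 23.5% against 22.3% were among the 1000 strongest summits. Their GC content was 46.0% against 37.7%. The strongest of them were Sik3, a salt-inducible kinase gene (1730, in an intron 212 bp downstream), CG9399 (1446, 45 bp downstream), GlcT, the glucosylceramide synthase gene (1370, 25 bp upstream), CG11200 (1349, 368 bp downstream) and Best1 (1291). All 5 were in both replicates, with 624 and 1124 for Sik3 and 427.9 and 860.7 for Best1.

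By position, the share with CGGAAG was between 3.12% and 5.38% in each bin upstream of −50 bp, and 11.6% (6.66 to 18.5%) from −50 to −1, 10.6% from 0 to 50, 14.4% (8.62 to 22.1%) from 51 to 100, 8.26% from 101 to 200 and 13.9% from 201 to 500 bp. TATAAA went the other way: it was at 27.6% (22.1 to 33.6%) of members from −300 to −201, at 27.2% from −200 to −101 and at 6.98% (3.24 to 12.8%) from −50 to −1. Tiles of unbound promoters were centred on the TSS and at steps of 101 bp from it. Summits lay anywhere in a stretch, so tiles and summits differ in position within it. With that limit, TATAAA was at 17.2% of tiles from −300 to −201 and at 14.7% from −200 to −101, below the members. It was at 18.2% of tiles centred on the TSS, against 9.86% of members from 0 to 50. Those tiles reach 50 bp upstream of the TSS, mostly farther than the windows of these members. TATAAA was at 9.42% of tiles against 4.96% of members from 101 to 200, but at 7.35% against 13.9% from 201 to 500. CGGAAG was at 2.64% of tiles centred on the TSS, below the members from 0 to 50. TATAAA also followed the signal, from 27.4% in the strongest 20% of members to 11.7% in the weakest. Their flanks held it at 10.6% and 13.4%. In the next weakest group it was at 11.0% against 11.8% of flanks, so the weakest groups did not exceed their flanks. CGGAAG was 7.89% in the strongest and 6.31% in the weakest, with overlapping intervals. Its flanks fell from 3.15% to 0.946%, so the contrast with flanks was larger in the weakest group. Position, GC content, signal and string content move together among these summits, and the part of each was not tested.

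**Figure D4:**
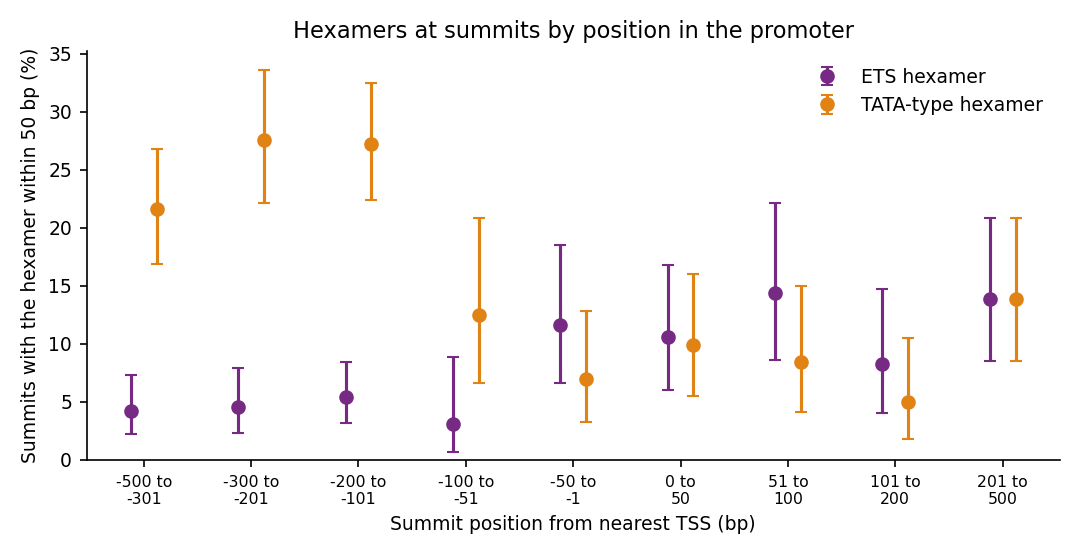
Share of members (%, vertical) with the ETS hexamer CGGAAG or the TATA-type hexamer TATAAA within 50 bp of the summit, by the position of the summit from the nearest TSS (bp, horizontal; negative is upstream). Bars are exact 95% binomial intervals; the ETS hexamer is highest from −50 bp onward and the TATA-type hexamer upstream of −100 bp.

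The starts of bound and unbound genes were compared for 5 strings. TATAAA at 40 to 20 bp before the TSS, where the TATA box lies, was at 4.65% (3.57 to 5.93%) of 1313 bound genes and at 8.70% (8.12 to 9.30%) of 8943 unbound ones. TCAGT within 5 bp of the TSS, a core of the initiator element, was at 14.2% (12.3 to 16.2%) against 8.48% (7.91 to 9.07%). CGGAAG from −100 to 50 bp was at 6.17% (4.93 to 7.61%) against 3.73% (3.35 to 4.15%). GTCACACT over the same stretch was at 5.03% (3.91 to 6.35%) against 3.23% (2.87 to 3.62%), and TATCGATA at 5.71% (4.52 to 7.11%) against 4.98% (4.53 to 5.45%), with overlapping intervals. The TATAAA counted near summits was most frequent at summits upstream of −100 bp, as the shares by position show, and not in this stretch. For bound genes the TSS nearest to a summit was taken and for unbound genes the 5′-most one, and the part of that choice in these differences was not tested.

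Compared with the 478 summits at shared promoters, members had less AT-rich sequence. GC content was 38.3% against 32.8%, TATAAA was at 17.9% against 27.2% (Fisher's exact test, two-sided, adjusted p = 0.000208 over 13 strings) and TAATTA at 8.64% against 14.2% (adjusted p = 0.00407). CGGAAG was at 7.51% against 4.60% (2.91 to 6.89%), a ratio of 1.63 that did not pass (Fisher's exact test, p = 0.0295, adjusted p = 0.0824); with a limit of 250 bp in place of 500 bp it did, at 2.74 (adjusted p = 0.00468). A summit in both replicates was found for 90.2% of members, 88.3% of shared promoter summits (85.1 to 91.0%) and 94.5% of those away from promoters (93.6 to 95.3%).

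The bound genes were read against lists of regulators, pathways and housekeeping complexes. Each count is of genes with single-gene promoter sequence and is to be set beside 9.75% over all genes. Genes with more promoters were bound more often, and the lists differ in the sequence they hold per gene. The part of this in the shares was not tested. Against 119 summits per Mb over all members, the cytosolic ribosomal list had 671, glycolysis 541, the ecdysone cascade 353 and neurons 101. Among ETS factor genes, 4 of 8 were bound. Eip74EF itself held 3 summits at its own promoters, of 444.8, 331.2 and 300.5 in signal, all in both replicates (172 and 266.3 for the first). pnt, an activator at the end of the Ras pathway, had 355.7 (126.6 and 234.8), Ets21C had 256.7 (57.9 and 219.9), and aop, the repressor also called yan, had 242.8 and 201.9. None of these 7 summits had CGGAAG or TATAAA within 50 bp.

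Of 17 genes of the ecdysone receptor and its cascade, 10 were bound. Eip75B, an early nuclear receptor of the cascade, had the highest signal, 748.8 (245.1 and 516.5 in replicates 1 and 3), and 2 weaker summits at 284.2 and 226.5. Hr39, another nuclear receptor, followed at 664.1 (232.1 and 433.2), 211 bp downstream of a TSS and with CGGAAG near the summit, the only one of the 14 summits of this list to have it. Hr78 had 469.8, tai, the receptor's coactivator taiman, 292.7, and Hr4 271.1. Eip78C, chinmo, ftz-f1, EcR and Blimp-1 lay between 197.1 and 230.6, near the lower end of the list, and with the stronger 50% of peaks 4 of the 17 were bound. Of the 11 other nuclear receptor genes, Hnf4 (721.8) and ERR (227.6) were bound; the strongest summit of Hnf4 had no match in replicate 3, and its next one, at 594.1, had 165.1 and 485.9.

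Glycolysis had the highest share of the lists, 8 of 12 genes. Gapdh2 (3191), Hex-A (1804; 652 and 1140), Ldh (1318; 466 and 845.8) and Eno, enolase (1184; 447.2 and 740), were among the strong members, all 166 to 203 bp upstream of the TSS. Pgk, phosphoglycerate kinase, had 529.8, Ald1, aldolase, 399.5, Pfk, phosphofructokinase, 215.2 and PyK, pyruvate kinase, 197. None of the 10 summits of this list lay within 100 bp of a TSS and none had CGGAAG.

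Cytosolic ribosomal protein genes had their summits close to the start. A member summit was at 38 of 87 genes (43.7%), and 27 further genes of the list were bound only at shared promoters. Of the 43 summits, 37 (86.0%) lay within 100 bp of the TSS, against 30.6% of all members; 8 (18.6%) had CGGAAG, against 7.51%, and 2 (4.65%) had TATAAA, against 17.9%. The signals were moderate, from 190.7 to 687.3. RpL31 had the highest (687.3; 249.6 and 430.5), 1 bp upstream of the TSS, followed by RpL30 (627; 286.5 and 335.9) and RpL24 (621.4; 245.6 and 371.6). Translation factor genes were bound in 8 of 51 cases (15.7%), led by eIF6 at 874.4, eEF1gamma at 509.6 and eIF2D at 342.9 (not matched in replicate 3). Of their 8 summits, 5 were found in both replicates. The other housekeeping lists were below the share of all genes: 2 of 68 mitochondrial ribosomal protein genes, 1 of 32 proteasome, 1 of 76 respiratory chain, 1 of 29 V-ATPase and 1 of 23 Rab genes were bound. Bound only at shared promoters were 15 further mitochondrial ribosomal, 4 proteasome, 8 respiratory chain, 1 V-ATPase and 2 Rab genes, and 6 translation factor genes. A single bound gene could still be strong: mRpL41 of the mitochondrial ribosome had 2123 (767.6 and 1365) and Rab5, of early endosomes, 752.3, whereas mRpL19 (224.7), Rpn11 of the proteasome lid (248.1), VhaSFD of the proton pump (228.6) and Cyt-c-p, cytochrome c (442.9, matched in replicate 3 alone), were lower.

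**Figure D5:**
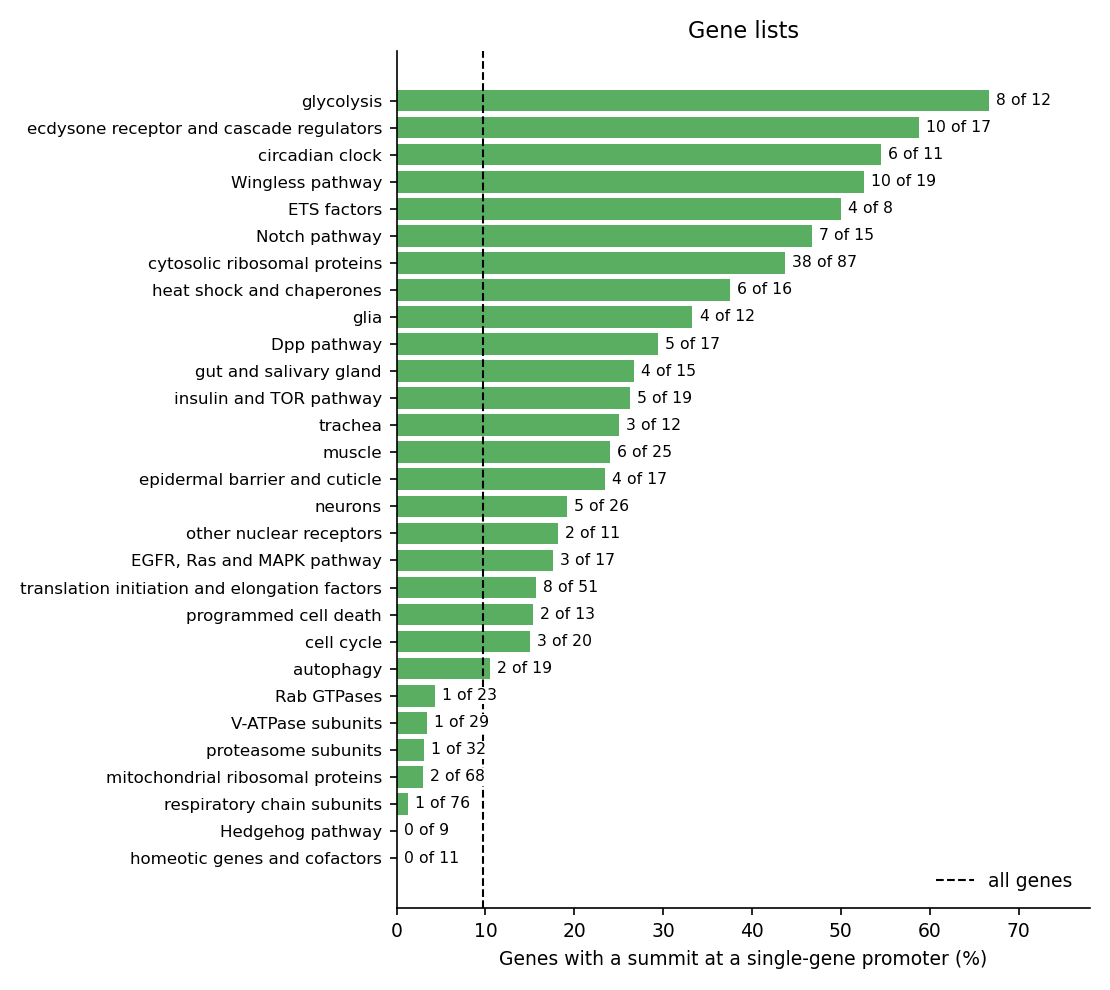
Share of the genes of each list with a summit at a single-gene promoter (%, horizontal), with the number bound of the number that have such sequence beside each bar; the dashed line is the 9.75% of all genes. By share of genes, glycolysis (8 of 12) and the ecdysone cascade (10 of 17) lead, and the homeotic (0 of 11) and Hedgehog (0 of 9) lists have none. By summits per Mb, which the bars do not show, the cytosolic ribosomal list leads at 671. The Hedgehog list holds the least sequence, 0.00615 Mb.

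Signalling pathways held bound genes in different numbers. Of 19 Wingless genes 10 were bound: sgg, the GSK3 kinase shaggy, led with 1189 (426.2 and 767.3) at 174 bp upstream of one TSS and 656 (168.6 and 492.2), with CGGAAG, at 30 bp upstream of another, and nkd, an inducible antagonist, had 545.4. The other 8, pan, arr, fz2, Wnt6, wg, Apc, arm and Wnt5, lay between 186.6 and 312, with pan, at 312, not matched in replicate 1. Of the 19, 6 were bound when the strongest peaks of replicate 1 alone were used. Of 15 Notch genes 7 were bound, led by E(spl)m7-HLH, a target of the pathway, at 880.3, the inhibitor numb at 727 and the ubiquitin ligase neur at 593.8. Of 17 Dpp genes 5 were bound (3 with the strongest peaks of replicate 3 alone), with the nuclear factor shn at 549, the inhibitor Dad at 349 and the receptor wit at 227.2. In the EGFR pathway 3 of 17 were bound: the ligand spi held 3 summits of 1168, 826.2 and 359.3, whereas Egfr (205.5) and the inhibitor aos (199.6) were weak. Of 19 insulin and TOR genes 5 were bound, led by the transcription factor foxo at 742, with Pi3K21B at 350.7 and Pdk1 at 343.1. None of 9 Hedgehog genes and none of 11 homeotic genes or cofactors had a member summit, though with the strongest peaks of replicate 1 alone 1 homeotic list gene did. The Hedgehog list holds 0.00615 Mb of single-gene promoter sequence, the least of any list.

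Stress and tissue genes completed the lists. Heat shock and chaperone genes were bound in 6 of 16 cases, led by the small heat shock gene Hsp27 (1098; 403 and 697.6), Hsp83 (628.2) and Hsp26 (478.9), at 114 to 154 bp upstream. Circadian clock genes were bound in 6 of 11, with sgg, Pdp1 (583.1) and vri (558.3) the strongest of them. In the glial list 4 of 12 were bound, led by moody (633.4), a receptor of the blood-brain barrier, then pnt and Gli (279.2), and in the neuronal list 5 of 26, led by the RNA-binding protein gene elav at 1299 (485.7 and 805.9), then the guidance receptors robo1 (308.3) and robo2 (287.5). Muscle had 6 of 25, with the titin-like sls (705.4), Msp300 (701.3) and Act87E (400.7). Trachea had 3 of 12, namely trh (700), bnl (334.7) and bs (187.1), and the gut and salivary gland list 4 of 15, led by tin (644.4, not matched in replicate 3), fkh (424.4) and CrebA (287.8). The epidermal barrier list had 4 of 17, with knk (393.8), Gli and cora (223.5). Cell cycle had 3 of 20, which were CycE (683.4), Dp (482.7) and E2f1 (247, not matched in replicate 1). Cell death had 2 of 13, the apoptosis inducer hid (424.3) and the inhibitor of apoptosis Diap1 (288.7). Autophagy, at 2 of 19 (Atg13 at 281.5, with no summit within 100 bp in either replicate list, and Atg1 at 210.2), was close to all genes. Each of these lists is small, so a change of a few genes moves its share, and no list was tested. With the strongest peaks of replicate 3 alone, 2 gut and salivary gland, 1 mitochondrial ribosomal, 3 Rab, 2 respiratory chain and 0 autophagy genes were bound; with those of replicate 1 alone, 2 V-ATPase genes were. For the cell cycle list either replicate alone gave 5 genes.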

How the data were processed

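Peaks of 2 ChIP-seq samples in 1 group were analysed. According to the descriptions deposited with the files, peaks were called by the authors per replicate and on pooled alignments, each with a control, which gave by irreproducible discovery rate (IDR) the list used here, on dm6. Which aligner, caller and IDR threshold were used was not given in the sources used here. The authors deposited for each peak its signal, its summit offset and the −log10 q-value (not used). No read counts were used, so depth is unknown.

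Summits were placed on Ensembl release 115 (BDGP6.54) with Python 3.11.15, numpy 2.4.6 and scipy 1.17.1. Only protein-coding TSSs decided membership. Members were ranked by signal into groups of 20%. Strings were sought within 50 bp of summits and in windows 400 bp away, and p-values were adjusted by Benjamini-Hochberg; a threshold of 0.05 was used. Scripts were tested on simulated data. Alternatives changed the TSS distance and annotation, peak threshold, replicate, match distance, string window and flank.

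Members and lists were chosen with earlier results of these data known. Named by rule were the genes at the 10 strongest summits, the 5 with most summits, up to 3 per list, the 5 strongest with CGGAAG, the 5 whose replicate ranks differ most and those nearest the 500 bp limit; other genes were named after their values were seen. Sequences were read from the dm6 RefSeq genome, only where no annotated exon lay in the window; none from arm 2R is printed.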

Additional observations from a re-analysis of the deposited data

How the results depend on the processing

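The number of samples and the unknown depth limit what these lists say of variation between embryos. Member and gene counts fell to 819 and 724 with the stronger 50% of IDR peaks. The upstream share was 62.4% with a 250 bp limit, 59.5% with only the 5′-most TSS of each gene and 74.6% with the stronger 50%. The share of members in both replicates was 69.2% at 50 bp, 96.7% at 200 bp, 68.5% against only the strongest peaks of each replicate and 94.4% for the stronger 50%. The CGGAAG ratio of members to shared promoters rose to 2.74 (adjusted p = 0.00468, Fisher's exact test) at 250 bp. The cause of these shifts was not tested, beyond that each setting changed the peaks, TSSs, TSS limit or match distance that were counted. The CGGAAG ratio to flanks stayed past the threshold throughout, from 1.95 with flanks at 800 bp to 3.77. With the strongest peaks of 1 replicate alone, members numbered 1559 to 1701, genes 1286 to 1391, the upstream share was 66.0 to 67.7%, the flank ratio 2.37 to 3.05 and the ratio to shared promoters 1.55 to 1.66. Of alternatives planned from the labels, 39 values stayed, 11 moved and 1 passed the threshold. Chosen after seeing the data were those for gene lists, groups of 20% by signal and TATAAA, of which 77 stayed and 29 moved, all of the moved ones counts of list genes. No paired analysis was possible because there is only 1 group.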
